A study of Mus musculus with 6 samples.

Results

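The 10 genes described here encode scavenger and endocytic receptors that resident macrophages are known to carry: Stab1, Lyve1, Folr2, Timd4, Msr1, Marco, Colec12, Vsig4, Scarb1 and Lrp1. They were taken by gene name from the non-control probes of a mouse expression array, which gave 14 of 56601 probes and 10 of 37006 gene names. RNA was measured in 3 fractions of cells sorted from the sublingual mucosa, the lining of the mouth under and around the tongue, of mice of the inbred strain BALB/c. All mice had been painted on that mucosa 2 times with FITC, a fluorescent contact sensitiser, so no fraction came from unpainted tissue. Fr3 was the F4/80+CD206hi fraction, Fr2 the CD11c-F4/80+CD206- fraction and Fr1 the CD11c+CD206- fraction, with 2 arrays each. F4/80 is a macrophage antigen encoded by Adgre1, CD206 the mannose receptor encoded by Mrc1, and CD11c an integrin chain encoded by Itgax. Before sorting, tissue of the dorsal tongue spent 30 min in collagenase and DNase, the 2 arrays of a fraction came from independent experiments, and the age of the mice and the number pooled per sort are not given in the sources used here.

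Scavenger receptors are surface proteins that bind modified lipoproteins, polyanions, dying cells or matrix fragments and carry them into endosomes, most of them through clathrin-coated pits. Tissue-resident macrophages use them to clear debris, lipoproteins and apoptotic cells without calling in other leukocytes, and several, Lyve1, Folr2 and Timd4 among them, are widely used as markers of long-lived resident macrophages. Some are shared with other cells: Lyve1 and Stab1 with lymphatic and sinusoidal endothelium, Scarb1 with liver and steroid-making cells, and Lrp1 with many cell types.

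Each receptor was read by 1 to 3 probes of 60 bases. The gap between the 2 arrays of a fraction, replicate 2 minus replicate 1, fell with the T content of a probe in Fr3 and in Fr1. In Fr2 its median changed less, from 0.14 at up to 25% T to −0.02 above 35% T. The cause was not tested. As examples, 1 probe each of 4 receptors is printed 5′ to 3′ with every T in capitals. The more T-rich Scarb1 probe, which entered the fit, is not among them, nor are those of Stab1 and Lyve1. The Folr2 probe (chr7:108988771-108988830, minus strand, coordinates of the files on mm9) holds 19 T and the Vsig4 probe (chrX:93443157-93443216, minus strand) 8 T. The Msr1 probe (chr8:40709296-40709355, minus strand) holds 15 T and the less T-rich Scarb1 probe (chr5:125777604-125777663, minus strand) 12 T.
Folr2: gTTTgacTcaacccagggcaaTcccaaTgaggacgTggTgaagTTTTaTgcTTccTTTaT
Vsig4: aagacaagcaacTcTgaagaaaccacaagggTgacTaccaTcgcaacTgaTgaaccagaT
Msr1: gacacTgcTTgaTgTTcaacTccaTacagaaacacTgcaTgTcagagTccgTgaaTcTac
Scarb1: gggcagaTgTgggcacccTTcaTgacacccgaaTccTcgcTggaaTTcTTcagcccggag
Only probes that can be read in at least 1 frame without a stop codon were printed for these 4 receptors. The other Msr1 probe and the more T-rich Scarb1 probe have 0 such frames and were left out. Whether a probe lies in a UTR was not determined here.

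Levels below are log2 of the processed spot intensity minus the 75th percentile of its array, so 0 is that percentile, and a level of one probe cannot be set against that of another. Between 42.3% and 50.4% of probes were well above background on an array, and no spot was saturated (0 on each array). Mrc1, which encodes CD206, was at 3.23 ± 0.79 in Fr3, 0.49 ± 0.22 in Fr2 and −3.80 ± 0.42 in Fr1, where it was not well above background (mean ± SD, n = 2 arrays each). Fr2, sorted as CD206-, thus carried Mrc1 RNA well above background on both arrays, at least 6.72-fold over Fr1. Itgax was at 0.58 ± 0.53 in Fr3, 1.99 ± 1.11 in Fr2 and 2.53 ± 0.25 in Fr1, and Adgre1 at 5.39 ± 0.10, 5.95 ± 0.02 and 4.44 ± 0.07 in the same order, so Fr2, sorted as CD11c-, carried Itgax RNA at a level that overlapped Fr1. The Fr3 and Fr1 arrays shared 1 slide, and both Fr2 arrays lay on another slide, so slide and fraction cannot be told apart in any comparison with Fr2. Over 20817 genes the 2 Fr3 arrays correlated less closely (Pearson r = 0.796) than the Fr2 arrays (r = 0.898) and the Fr1 arrays (r = 0.883). On Fr3 replicate 2, 1602 genes were over 8-fold lower than on replicate 1 and 241 over 8-fold higher.

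Most macrophage marker genes were well above background in each fraction: of 9 such markers, 8 were so on both arrays of Fr3, 7 of Fr2, where Mertk was not on either, and 7 of Fr1, where Mertk and Mrc1 were not. Their summed linear level was 327 to 384 times the array's 75th percentile in Fr3, 128 to 278 in Fr2 and 76.2 to 82.5 in Fr1. Such a sum is carried mostly by its brightest probes. The summed level of 8 neutrophil markers was 22.7 to 48.6 in Fr3, where Ly6g was not well above background on either array, 486 to 532 in Fr2 and 112 to 120 in Fr1, where Ly6g and Ltf were not. Most of it on every array was S100a9 alone, at log2 levels of 5.45 and 4.27 in Fr3, 8.55 and 8.59 in Fr2 and 6.70 and 6.82 in Fr1. The summed level of 8 eosinophil markers was 7.32 to 12.5 in Fr3, where Prg2 was not well above background, 79.9 to 157 in Fr2 and 19.6 to 20.2 in Fr1, so the granulocyte sums were highest in Fr2. The 9 conventional dendritic cell markers summed to 3.84 to 6.30 in Fr3, 8.18 to 8.45 in Fr2 and 8.38 to 12.4 in Fr1. Batf3 was not well above background on any array, Itgae on none of Fr3 or Fr2 and Clec9a on neither of Fr3. The 6 monocyte markers summed to 5.53 to 11.2 in Fr3, 67.5 to 69.3 in Fr2 and 11.8 to 32.6 in Fr1. The part of this mixture in the receptor differences was not tested. In RNA from a sorted pool, fewer cells of a type and less RNA per cell cannot be told apart.

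In the CD206hi fraction Stab1, Lyve1, Folr2 and Vsig4 stood out: they were bright on both Fr3 arrays and dim or below background in both other fractions. With 2 arrays per fraction throughout, Fr3 exceeded Fr1 by 18.6-fold for Stab1 and 39.3-fold for Folr2, and by at least 29.7-fold for Lyve1 and at least 17.8-fold for Vsig4, which were not well above background in Fr1. Folr2 was well above background on 1 of the 2 Fr1 arrays. Msr1 was shared by Fr3 and Fr2 over Fr1, Timd4 and Lrp1 were above Fr2 in Fr3 but overlapped Fr1, the fraction means of Colec12 lay within 0.30 of each other, Scarb1 gave different values on its 2 probes, and Marco was not well above background on any array. The 9 receptors with a usable probe (all but Marco; 12 of the 14 probes) entered the tests. Of these, Lyve1 and Vsig4 entered only because they were well above background on both Fr3 arrays, so their differences follow in part from the filter. None of the 9 passed an adjusted p under 0.05 (limma, adjusted over all 20817 genes) in Fr3 against Fr1 or in Fr3 against Fr2, where 0.0048% of all genes passed in each, nor in Fr2 against Fr1, where 0% did.

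At an unadjusted p under 0.05, 5 of 9 receptors were higher in Fr3 than in Fr1 (Stab1, Lyve1, Folr2, Msr1 and Vsig4), against 5.34% of all genes called in that direction, and 0 were higher in Fr1, against 2.78%. The same 5 were those whose Fr3 arrays both lay above both Fr1 arrays, against 21.9% of all genes. Against Fr2, 5 of 9 were higher in Fr3 (Stab1, Lyve1, Folr2, Timd4 and Vsig4), beside 4.08% of all genes, and 0 in Fr2, beside 4.83%. The Fr3 arrays lay above both Fr2 arrays for 6 of 9 receptors, which adds Lrp1, beside 22.7% of all genes, and below both for 1, Scarb1, beside 19.5%. The median difference of the 9 receptors was 2.76 for Fr3 minus Fr1 and 2.35 for Fr3 minus Fr2 (log2), against medians of 0.05 and 0.08 over all genes. These 2 comparisons share the Fr3 arrays, and the receptors are known macrophage genes, so the counts describe the chosen genes only. Without Lyve1 and Vsig4, 3 of the other 7 receptors were higher in Fr3 at an unadjusted p under 0.05 in each of the 2 comparisons. A separate fit took only the probes well above background on all 6 arrays, which left 3 receptors, Colec12, Scarb1 and Lrp1. There 0 were called against Fr1 and 1, Lrp1, against Fr2. In the main fit Lrp1 was not called against Fr2 (limma unadjusted p = 0.078).

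**Figure D1:**
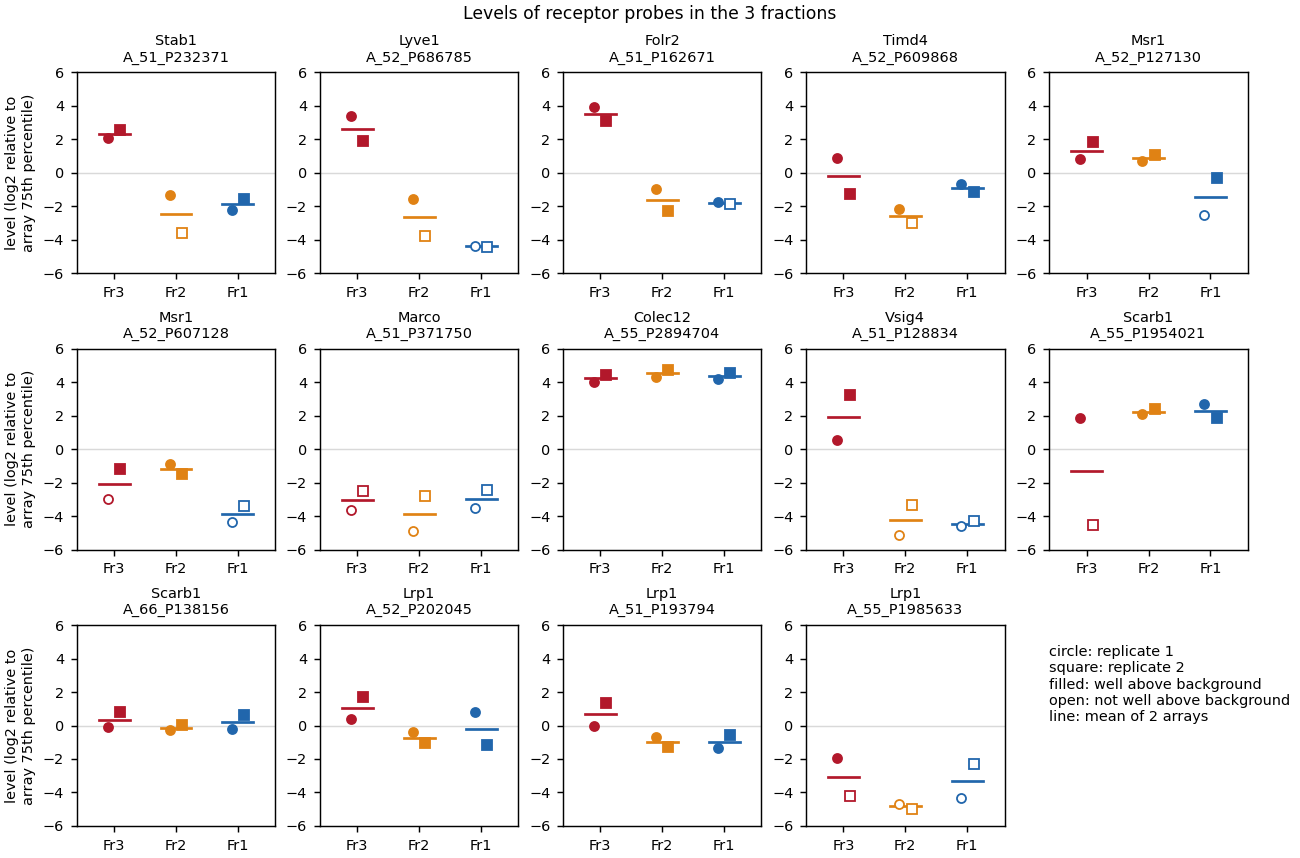
Levels of the 14 receptor probes on each array (y axis: log2 above the 75th percentile of that array), with Fr3, Fr2 and Fr1 from left to right; circles are replicate 1, squares replicate 2, open symbols arrays on which the probe was not well above background, and lines the mean of 2 arrays. Stab1, Lyve1, Folr2 and Vsig4 are higher on both Fr3 arrays than on any other array, while Colec12 sits between 4.01 and 4.71 on all 6 arrays.

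Stab1 encodes stabilin-1, a scavenger receptor that takes up modified lipoproteins, the matrix protein SPARC and dying cells. Its probe (chr14:31952288-31952347) read 2.10 and 2.57 on the 2 Fr3 arrays, −1.31 and −3.59 on those of Fr2 and −2.21 and −1.56 on those of Fr1. Both Fr3 arrays were above the other 4, the second Fr2 array was not well above background, and Fr2 and Fr1 overlapped. The log2 difference was 4.22 ± 0.83 for Fr3 minus Fr1 (SE, 18.6-fold, limma adjusted p = 0.238) and 4.78 ± 0.83 for Fr3 minus Fr2 (27.6-fold, or 22.2-fold with the dim Fr2 array raised to the lowest signal well above background on it, limma adjusted p = 0.157).

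Lyve1 encodes a receptor for the matrix sugar hyaluronan that lines lymphatic vessels and also marks perivascular resident macrophages. Its probe (chr7:117994171-117994230) read 3.37 and 1.89 on the 2 Fr3 arrays, −1.57 and −3.77 on those of Fr2 and −4.36 and −4.43 on those of Fr1. It was well above background on both Fr3 arrays, on the first Fr2 array and on neither Fr1 array, and no 2 fractions overlapped. Fr3 exceeded Fr1 at least 29.7-fold, a bound that sets each Fr1 array at the lowest signal well above background on it (limma adjusted p = 0.144), and Fr2, measured on 1 of 2 arrays, by 29.8-fold with each Fr2 array at no less than the same limit and 39.4-fold as read (limma adjusted p = 0.147). Of 6 lymphatic endothelial markers that were looked up beside it, 2 were well above background on both Fr3 arrays and 4, Flt4, Ccl21a, Mmrn1 and Reln, were not on either. Their summed level was 1.30 to 3.55 in Fr3, 3.47 to 4.70 in Fr2 and 2.52 to 4.92 in Fr1. Of 7 blood endothelial markers 0 were well above background on both Fr3 arrays, and the part of endothelial RNA in these differences was not tested.

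Folr2 encodes folate receptor beta, a lipid-anchored receptor that takes up folate by endocytosis and is found mainly on macrophages. Its probe, printed above, read 3.91 and 3.08 on the 2 Fr3 arrays, −0.99 and −2.28 on those of Fr2 and −1.75 and −1.85 on those of Fr1. The Fr3 arrays were far above the other 4, which overlapped each other. Folr2 was well above background on both Fr3 and both Fr2 arrays, but on only 1 of the 2 Fr1 arrays. The log2 difference was 5.30 ± 0.66 for Fr3 minus Fr1 (SE, 39.3-fold, also with the dim Fr1 array at no less than the lowest signal well above background on it, limma adjusted p = 0.144). It was 5.13 ± 0.66 for Fr3 minus Fr2 (35-fold, limma adjusted p = 0.0998).

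Vsig4 encodes CRIg, a receptor of the immunoglobulin family by which macrophages bind and take up particles coated with complement C3 fragments. Its probe, the least T-rich of the 14, read 0.53 and 3.25 on the 2 Fr3 arrays, −5.11 and −3.33 on those of Fr2 and −4.61 and −4.30 on those of Fr1. It was well above background on the Fr3 arrays and on none of the other 4, and the 2 Fr3 arrays themselves lay 2.72 apart on the log2 scale, replicate 2 being the higher. Fr3 exceeded Fr1 at least 17.8-fold (limma adjusted p = 0.163) and Fr2 at least 28.6-fold (limma adjusted p = 0.147). Of 424 probes with 8 T, 8, Vsig4 included, were higher by that much or more on Fr3 replicate 2, and the median gap at that T content was 0.70.

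In these 4 receptors the fitted difference from both other fractions, which for Lyve1 and Vsig4 is partly or wholly against background, passed an unadjusted p under 0.05 in each alternative in which the gene was tested (14 or 15 per gene and comparison). These alternatives are not all separate: leaving out either array of the fraction that is not compared repeats the fit of only the 2 groups. The differences were smaller with normexp, which models the local background in place of the processed signal. An offset of 50 was added to each spot in that setting. The parts of the background model and of the offset in this were not tested. With normexp, Fr3 minus Fr1 was 1.85 for Stab1, 2.41 for Lyve1, 2.66 for Folr2 and 1.73 for Vsig4. Fr3 minus Fr2 was then 1.96 for Stab1, 2.31 for Lyve1, 2.71 for Folr2 and 1.82 for Vsig4. Fitted within the slide that the Fr3 and Fr1 arrays shared, with Fr2 left out, the adjusted p of the 4 lay between 0.209 and 0.294. Leaving out Fr3 replicate 1 brought the limma adjusted p of all 4 under 0.05, at 0.0406 for Stab1, 0.0146 for Lyve1, 0.0162 for Folr2 and 0.0142 for Vsig4 against Fr1, with 1476 genes then passing in all against 1 with every array. Against Fr2 it then lay between 0.0185 and 0.0426 for the 4, with 988 genes passing against 1. The spread of the lone Fr3 array is then taken from the other fractions. Leaving out any other array had 0 genes passing in both comparisons: the adjusted p of the 4 then lay between 0.115 and 0.279 against Fr1 and between 0.0885 and 0.174 against Fr2 without Fr3 replicate 2, between 0.420 and 0.650 against Fr1 without 1 Fr1 array, and between 0.333 and 0.716 against Fr2 without 1 Fr2 array.

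**Figure D2:**
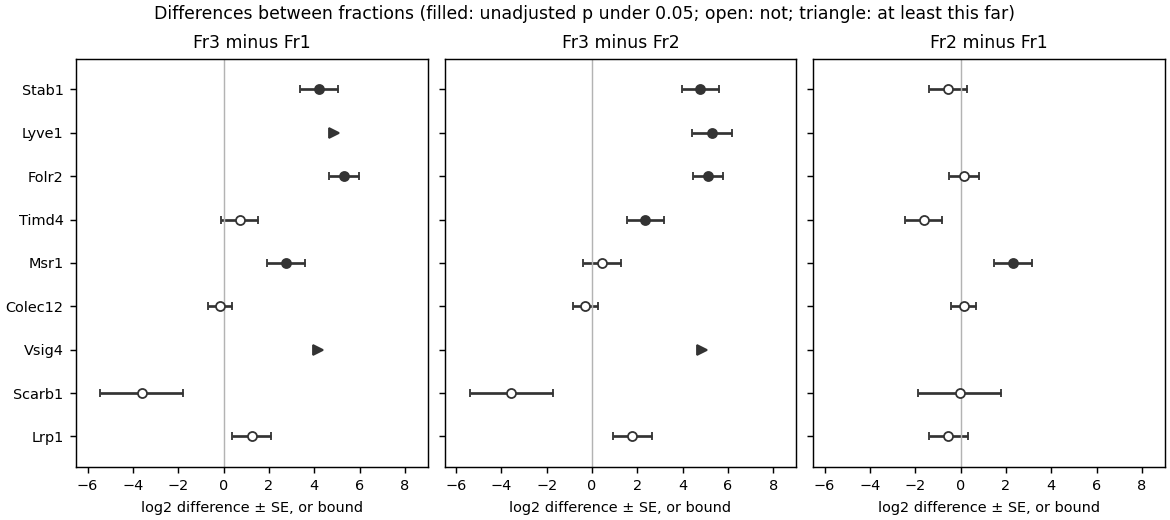
Log2 difference (x axis) with its SE for the 9 receptors tested, in Fr3 minus Fr1, Fr3 minus Fr2 and Fr2 minus Fr1, from limma over 2 arrays per fraction; filled points have an unadjusted p under 0.05, triangles are lower bounds for Lyve1 in Fr3 minus Fr1 and Vsig4 in both Fr3 comparisons, and neither is drawn in Fr2 minus Fr1, where no bound could be given. The points and bounds of Lyve1, Vsig4, Folr2 and Stab1 lie furthest to the right in both Fr3 comparisons, while the third panel has 1 filled point, Msr1.

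The stretch around the transcription start was looked up for the receptors, those high in Fr3 alone among them. Lyve1, which is one of these, had no promoter entry. RefSeq promoter entries (GRCm38.p6, 250 bases before to 50 after the start, on the gene's strand) were found for 6 of the 10 receptors, 7 entries in all, and were searched on both strands for 4 short motifs. These were the PU-box GAGGAA, bound by the myeloid factor PU.1, the half-site TGCTGA, bound by MAF factors, the E-box CACGTG, bound by MITF and TFE factors, and the TATA box TATAAA. Matches are in capitals in the sequences of Stab1 (chr14:31168592-31168891, minus strand), Vsig4 (chrX:96293389-96293688, minus strand) and the 2 entries of Folr2 (chr7:101857141-101857440 and chr7:101845282-101845581, minus strand), where TCAGCA is the MAF half-site read on the other strand.
Stab1: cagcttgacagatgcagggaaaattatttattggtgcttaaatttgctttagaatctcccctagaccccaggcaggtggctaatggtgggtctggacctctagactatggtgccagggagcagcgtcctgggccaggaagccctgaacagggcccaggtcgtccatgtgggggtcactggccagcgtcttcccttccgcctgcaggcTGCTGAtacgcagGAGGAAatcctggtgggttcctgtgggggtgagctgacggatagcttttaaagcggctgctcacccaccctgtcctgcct
Vsig4: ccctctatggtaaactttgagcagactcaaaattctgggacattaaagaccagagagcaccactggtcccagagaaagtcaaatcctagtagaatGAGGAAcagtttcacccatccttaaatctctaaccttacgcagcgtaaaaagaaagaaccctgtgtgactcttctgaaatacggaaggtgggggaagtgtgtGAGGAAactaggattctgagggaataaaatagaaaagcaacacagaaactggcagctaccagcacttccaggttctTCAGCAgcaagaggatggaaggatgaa
Folr2 upstream entry: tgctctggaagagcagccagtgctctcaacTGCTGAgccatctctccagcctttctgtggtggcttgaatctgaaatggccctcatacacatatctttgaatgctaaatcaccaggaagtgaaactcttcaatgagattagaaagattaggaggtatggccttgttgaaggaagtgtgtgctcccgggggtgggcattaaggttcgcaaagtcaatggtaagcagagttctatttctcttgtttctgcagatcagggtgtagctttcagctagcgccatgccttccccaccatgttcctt
Folr2 downstream entry: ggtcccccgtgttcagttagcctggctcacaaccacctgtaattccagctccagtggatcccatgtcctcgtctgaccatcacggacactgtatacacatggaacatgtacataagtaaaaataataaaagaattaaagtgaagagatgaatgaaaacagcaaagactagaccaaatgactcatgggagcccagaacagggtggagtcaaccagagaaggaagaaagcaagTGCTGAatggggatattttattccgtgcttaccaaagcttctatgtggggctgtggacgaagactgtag
Stab1 held a MAF half-site at −43 and a PU-box at −30 from the start, 7 bases apart. Vsig4 held PU-boxes at −155 and −53 and a MAF half-site at 24, and the Folr2 entries held a MAF half-site at −220 and at −19. Over the 7 entries the MAF half-site was present in 5 and the PU-box in 3, against 19.5% and 28.3% of the 32851 mouse promoters in the table, and the E-box and the TATA box were in 0, against 7.15% and 13.6%. Counted by gene, with the 2 Folr2 entries as 1, the MAF half-site was in 4 of 6 and the PU-box in 3 of 6. No matches overlapped. The entry of Timd4, which was not high in Fr3 alone, held 2 MAF half-sites, that of Marco, which was not well above background, 1 PU-box, and that of Lrp1 none of the 4 motifs. A match of 6 letters is a description of the sequence only.

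Timd4 encodes TIM-4, which binds phosphatidylserine on dying cells and tethers them for engulfment. Its probe (chr11:46657173-46657232), the most T-rich of the 14 with 41.7% T, read 0.86 and −1.29 on the 2 Fr3 arrays, −2.15 and −2.99 on those of Fr2 and −0.70 and −1.17 on those of Fr1. The Fr3 arrays straddled the Fr1 arrays and both lay above the Fr2 arrays, of which the second was not well above background. The log2 difference was 0.72 ± 0.82 for Fr3 minus Fr1 (SE, 95% interval −1.24 to 2.68, limma adjusted p = 0.842) and 2.35 ± 0.82 for Fr3 minus Fr2 (5.10-fold, limma adjusted p = 0.485). Without Fr3 replicate 1 these became −0.36 and 1.27, and the unadjusted p against Fr2 was 0.134; with normexp the difference from Fr2 was 0.67 (unadjusted p = 0.0601). The median gap between the Fr3 arrays at the T content of this probe was −1.18, and the gap of Timd4 was −2.15.

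Msr1 encodes scavenger receptor class A, a trimeric receptor that takes up acetylated lipoproteins and bacterial surface molecules. Its brighter probe read 0.82 and 1.81 on the 2 Fr3 arrays, 0.70 and 1.05 on those of Fr2 and −2.55 and −0.33 on those of Fr1, the first of which was not well above background. Fr3 and Fr2 overlapped and both were above Fr1. The log2 difference was 2.76 ± 0.84 for Fr3 minus Fr1 (SE, 6.75-fold, limma adjusted p = 0.431), 0.44 ± 0.84 for Fr3 minus Fr2 (95% interval −1.57 to 2.45) and 2.31 ± 0.84 for Fr2 minus Fr1 (4.97-fold, limma adjusted p = 0.467). The other probe (chr8:40689158-40689217) read −2.98 and −1.20 in Fr3, −0.90 and −1.49 in Fr2 and −4.34 and −3.39 in Fr1, and was not well above background on the first Fr3 array and both Fr1 arrays. It gave the same order of Fr2 over Fr1 (2.67 ± 0.78 SE, limma adjusted p = 0.380), but Fr3 minus Fr2 was −0.89 ± 0.78. The call of Msr1 for Fr3 minus Fr1 was lost without Fr1 replicate 1 (1.65, unadjusted p = 0.0897), without Fr3 replicate 2 (2.26, unadjusted p = 0.0523) and on the other probe (1.78, unadjusted p = 0.0576), and with normexp the difference was 0.99. Without Fr1 replicate 1 Lrp1 was called in its place (unadjusted p = 0.0474), so the count of 5 receptors stayed.

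Marco, a class A receptor of certain macrophages that binds bacteria and particles, had 1 probe, on chromosome 1. It read −3.62 and −2.49 on the 2 Fr3 arrays, −4.92 and −2.81 on those of Fr2 and −3.52 and −2.45 on those of Fr1. It was not well above background on any of the 6, so no difference is given.

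Colec12, a scavenger receptor with a collagen stem and a sugar-binding lectin head that is best known from endothelium, had 1 probe, on chromosome 18. It read 4.01 and 4.44 on the 2 Fr3 arrays, 4.34 and 4.71 on those of Fr2 and 4.21 and 4.56 on those of Fr1. All 3 fractions overlapped, and the fitted differences were −0.16 ± 0.54 for Fr3 minus Fr1 (SE, 95% interval −1.45 to 1.13), −0.30 ± 0.54 for Fr3 minus Fr2 (−1.59 to 1.00) and 0.14 ± 0.54 for Fr2 minus Fr1 (−1.16 to 1.43). The sign of the first turned with normexp (0.03) and that of the last with quantile normalization (−0.18).

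Scarb1 encodes SR-BI, the receptor that takes up cholesterol esters from high-density lipoprotein. Its more T-rich probe (chr5:125757483-125757542) read 1.85 and −4.51 on the 2 Fr3 arrays, 2.07 and 2.40 on those of Fr2 and 2.71 and 1.84 on those of Fr1. One Fr3 array was level with the other fractions and the second was not well above background. The second probe, printed above, read −0.12 and 0.82 in Fr3, −0.27 and 0.00 in Fr2 and −0.20 and 0.62 in Fr1, with all fractions overlapping.

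The fit, which took the first of these probes, gave a log2 difference of −3.60 ± 1.83 for Fr3 minus Fr1 (SE, 95% interval −7.97 to 0.76, limma adjusted p = 0.625) and −3.57 ± 1.83 for Fr3 minus Fr2 (limma adjusted p = 0.599). The other Scarb1 probe gave 0.14 ± 0.64 and 0.49 ± 0.64 for the same comparisons. Without Fr3 replicate 2 the first probe's difference from Fr1 was −0.42, and without Fr3 replicate 1 it was −6.78 with a limma adjusted p of 0.0142, so that a single array sets the Scarb1 value. A gap between the Fr3 arrays as low as that of the first probe (−6.36) was found at 22 of 27867 probes and at 3 of the 1672 that also have 21 T. The median gap of those 1672 was −0.02.

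Lrp1 encodes a large endocytic receptor of the LDL receptor family that clears apolipoprotein E, protease complexes and dying cells. Its brightest probe (chr10:127024797-127024856), on an Ensembl transcript, read 0.37 and 1.73 on the 2 Fr3 arrays, −0.42 and −1.04 on those of Fr2 and 0.82 and −1.19 on those of Fr1. The Fr3 arrays lay above the Fr2 arrays and overlapped the Fr1 arrays, which were far apart. The log2 difference was 1.24 ± 0.85 for Fr3 minus Fr1 (SE, 95% interval −0.80 to 3.27, limma adjusted p = 0.679) and 1.78 ± 0.85 for Fr3 minus Fr2 (3.42-fold, limma adjusted p = 0.599). With normexp these were 0.48 and 0.76.

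A second Lrp1 probe (chr10:126975573-126975632), on the RefSeq transcript, read −0.01 and 1.36 in Fr3, −0.68 and −1.27 in Fr2 and −1.33 and −0.59 in Fr1. On this probe both Fr3 arrays lay above the other 4, with differences of 1.64 ± 0.70 for Fr3 minus Fr1 (SE) and 1.65 ± 0.70 for Fr3 minus Fr2 (limma adjusted p = 0.579 and 0.519). The third probe was well above background on 1 array, Fr3 replicate 1, at −1.96, and read −4.24 on Fr3 replicate 2, −4.69 and −4.96 in Fr2 and −4.33 and −2.28 in Fr1.

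**Figure D3:**
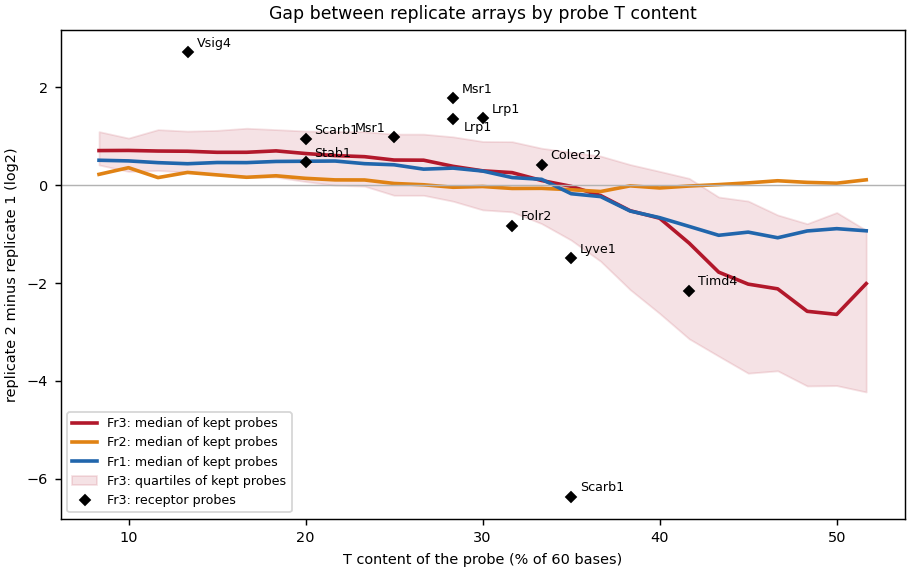
Gap between the 2 arrays of a fraction (y axis: replicate 2 minus replicate 1, log2) against the T content of the probe (x axis: percent of 60 bases). Lines are medians of all kept probes with the same T content, shading the quartiles for Fr3, and diamonds the 12 receptor probes in Fr3; the Scarb1 probe at 35% T lies at −6.36 and Vsig4 at 2.72, both outside the shading.

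The receptor probes lay on both sides of the Fr3 replicate gap. Over kept probes with up to 25% T the median gap was 0.63 in Fr3, 0.14 in Fr2 and 0.47 in Fr1, and over those with more than 35% T it was −0.89, −0.02 and −0.72. Of the 4 receptors high in Fr3 alone, Stab1 (20.0% T) had a gap of 0.47 and Vsig4 one of 2.72, while Folr2 (31.7% T) had −0.83 and Lyve1 (35% T) −1.49. Both Fr3 arrays of each lay above all 4 others, which is how these 4 were picked out. The part of the gap in their differences was not tested. With probes over 30% T left out, 5 of the receptors could be tested, Stab1 and Vsig4 among them with the same probes and differences. The limma adjusted p of Vsig4 for Fr3 minus Fr2 was then 0.0488, with 56 of 13718 genes under 0.05 against 1 of 20817 in the main fit. That Vsig4 difference is set against background, as its probe was well above background on neither Fr2 array.

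Between Fr2 and Fr1, which lay on different slides, 1 of 9 receptors, Msr1, was higher in Fr2 at an unadjusted p under 0.05, beside 6.46% of all genes, and 0 were higher in Fr1, beside 3.33%. The arrays did not overlap for Lyve1 and Msr1, higher in Fr2 (22.3% of all genes), and for Timd4, higher in Fr1 (22.5%). Timd4 differed by −1.63 ± 0.82 (SE, limma adjusted p = 0.567). Lyve1 was not well above background in Fr1, and since 1 of its Fr2 arrays was dim too, no bound above 1-fold can be given. Stab1 (−0.56 ± 0.83), Folr2 (0.17 ± 0.66), Scarb1 (−0.03 ± 1.83) and Lrp1 (−0.54 ± 0.85) differed by less than their SE. The median over the 9 receptors was 0.14, against −0.03 over all genes. Without Fr1 replicate 1 or Fr2 replicate 1 the call of Msr1 was lost and the count became 0.

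The genes whose pattern over the 6 arrays lay nearest to each receptor were found by the root mean square difference of centred log2 levels, among 12888 genes; 6 arrays from 3 fractions allow many genes to look alike. Nearest to Folr2 were Fcna (0.33), which encodes the lectin ficolin A, Npl (0.50) and the chemokine gene Ccl7 (0.55). Nearest to Lyve1 were Hal (0.50), which encodes histidine ammonia-lyase, Cbr2 (0.52) and again Ccl7 (0.63). Mxra8 (0.52) and the IgG receptor gene Fcgrt (0.54) came first for Stab1, and Pdgfc (1.00) and Mxra8 (1.19) for Vsig4. The nearest to Scarb1 were Gpr85 (0.10), Trpc1 (0.13) and Dis3l2 (0.13), each of which read between −4.20 and −4.33 on Fr3 replicate 2 and between 1.83 and 3.04 on the other 5 arrays. Nearest to the others were Plcxd1 for Timd4 (0.35), Zfp708 for Msr1 (0.32), Zfp410 for Colec12 (0.03) and Lpcat1 for Lrp1 (0.22).

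Genes that work with these receptors were followed in 9 lists, in none of which a gene passed an adjusted p under 0.05 in any comparison (0 in each); counts below are at an unadjusted p under 0.05, beside 5.34% of all genes higher and 2.78% lower in Fr3 minus Fr1, and 4.08% higher and 4.83% lower in Fr3 minus Fr2. Among 15 other scavenger receptors tested, 3 were higher in Fr3 than in Fr1 and 1 lower, with a median log2 difference of 0.39. That median was 0.003 with normexp and −0.0555 without Fr3 replicate 2. Cd163, the receptor for haemoglobin bound to haptoglobin, read 7.05 and 6.68 in Fr3, 5.39 and 3.84 in Fr2 and 2.63 and 1.28 in Fr1. Its arrays were in the order Fr3, Fr2, Fr1 without overlap, and Fr3 minus Fr1 was 4.91 ± 0.77 (SE, limma adjusted p = 0.156). Mrc1, a sort marker and therefore no independent finding, exceeded its Fr1 level at least 44.9-fold in Fr3 (limma adjusted p = 0.0851). Stab2, the sister gene of Stab1, differed by −0.49 and Cd36, a fatty acid and lipoprotein receptor, by 0.55 in Fr3 minus Fr1. Of 14 other LDL receptor family and sorting receptors, 0 were higher and 1, Sorl1, lower in Fr3 (−2.11 ± 0.63 SE against Fr1, limma adjusted p = 0.420, and −2.67 ± 0.63 against Fr2).

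Other receptors and bridging proteins for dying cells ran in both directions beside Timd4. Of 14 tested, 3 were higher and 2 lower in Fr3 than in Fr1 (median −0.20, but 0.34 without Fr3 replicate 1 and 0.02 without Fr1 replicate 1), and 2 higher and 1 lower than in Fr2 (median 0.28). Gas6, which links phosphatidylserine to the receptor Mertk, read 4.39 and 3.80 in Fr3, 1.71 and 0.25 in Fr2 and 0.72 and 1.21 in Fr1, a difference of 3.13 ± 0.68 for Fr3 minus Fr1 (SE, limma adjusted p = 0.279). Pros1, the related protein S, differed by 3.13 ± 0.69 in the same comparison. Havcr2, which encodes TIM-3 of the TIM family, ran the other way: −2.64 and −1.54 in Fr3, 3.44 and 2.32 in Fr2 and 3.05 and 2.70 in Fr1, with Fr3 minus Fr1 at −4.97 ± 0.67 (SE, limma adjusted p = 0.144) and Fr3 minus Fr2 at −4.97 ± 0.67 (limma adjusted p = 0.114). The Fr3 arrays were below all 4 others, and 1 of them was not well above background.

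The 15 folate genes tested beside Folr2 had a median log2 difference of 0.08 in Fr3 minus Fr1, 0.64 in Fr3 minus Fr2 and 0.08 in Fr2 minus Fr1. The first of these medians became 0.78 without Fr3 replicate 1. Of 11 hyaluronan genes beside Lyve1, 0 were called in any of the 3 comparisons. Versican, encoded by Vcan, differed by 2.70 ± 1.31 in Fr3 minus Fr1 (SE, limma adjusted p = 0.625), and its 2 Fr3 arrays read −1.83 and 1.74. In the complement C3 list beside Vsig4, 4 of 11 genes were higher and 1 lower in Fr3 than in Fr1 (median 0.67). Properdin, encoded by Cfp, which stabilises the C3 convertase, differed by 2.26 ± 0.58 (SE, limma adjusted p = 0.345).

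Of 20 cholesterol and lipoprotein genes beside Scarb1 and Lrp1, 4 were higher and 1 lower in Fr3 than in Fr1, and 3 higher and 3 lower than in Fr2. Plin2, which coats lipid droplets, read 1.45 and 2.21 in Fr3, −0.43 and −0.42 in Fr2 and −0.75 and −1.15 in Fr1, a difference of 2.78 ± 0.56 for Fr3 minus Fr1 (SE, limma adjusted p = 0.244). Abcg1, a cholesterol exporter, was higher in Fr2 than in both other fractions: it read 0.32 and 0.80 in Fr3, 3.24 and 2.57 in Fr2 and 0.31 and 0.67 in Fr1. Lpl, lipoprotein lipase, differed by 2.61 ± 0.83 in Fr3 minus Fr1 and by 2.05 ± 0.83 in Fr2 minus Fr1 (SE; the limma adjusted p of the first was 0.455).

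The endocytic machinery had a median of 1.03 in Fr3 minus Fr1, against 0.05 over all genes, which became 0.42 with normexp, 0.58 as a mean of probes, 0.65 without Fr1 replicate 1 and 0.54 without Fr3 replicate 2. Of 24 coat, adaptor and endosome genes 5 were higher and 0 lower, against 1 and 0 in Fr3 minus Fr2 (median 0.17). Dab2, a clathrin adaptor for LDL receptor family members, read 5.20 and 4.85 in Fr3, 3.56 and 1.84 in Fr2 and 2.09 and 2.35 in Fr1, a difference of 2.80 ± 0.71 for Fr3 minus Fr1 (SE, limma adjusted p = 0.337). Ap2m1, a subunit of the AP-2 adaptor, differed by 1.84 ± 0.53 and Clta, a clathrin light chain, by 1.62 ± 0.60 in the same comparison. Of 18 macrophage transcription factors, 6 were higher and 1 lower in Fr3 than in Fr1 (median 0.53, or 0.16 with normexp), but 1 and 0 against Fr2 (median −0.02). Tfec, of the MITF and TFE family, differed by 5.11 ± 1.02 and Zeb2 by 2.30 ± 0.54 in Fr3 minus Fr1 (SE, limma adjusted p = 0.241 and 0.302). The Fr1 arrays of Tfec read −1.24 and −3.99, and it was well above background on 1 of them.

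**Figure D4:**
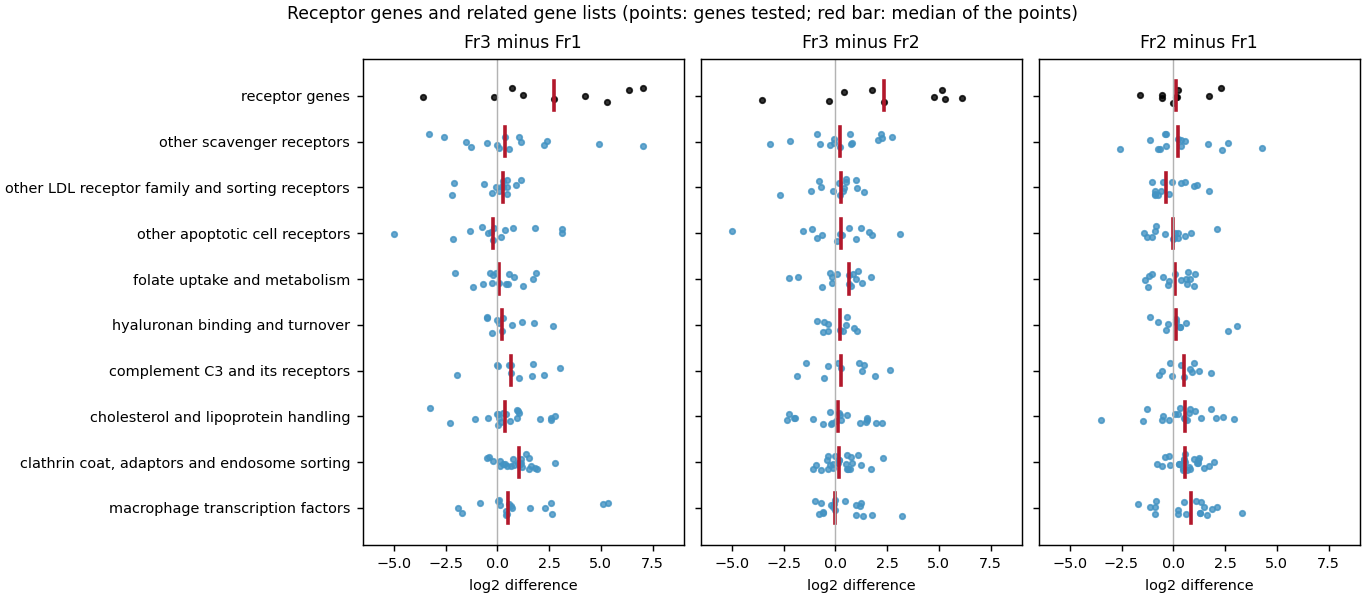
Log2 differences (x axis) of the 9 receptors (top, black) and of the genes tested in 9 related lists (blue), for Fr3 minus Fr1, Fr3 minus Fr2 and Fr2 minus Fr1; each point is a gene at its fitted difference, also where one fraction was at background, and each red bar a median. The receptors have medians of 2.76, 2.35 and 0.14, while the list medians lie between −0.36 and 1.03.

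**Figure D5:**
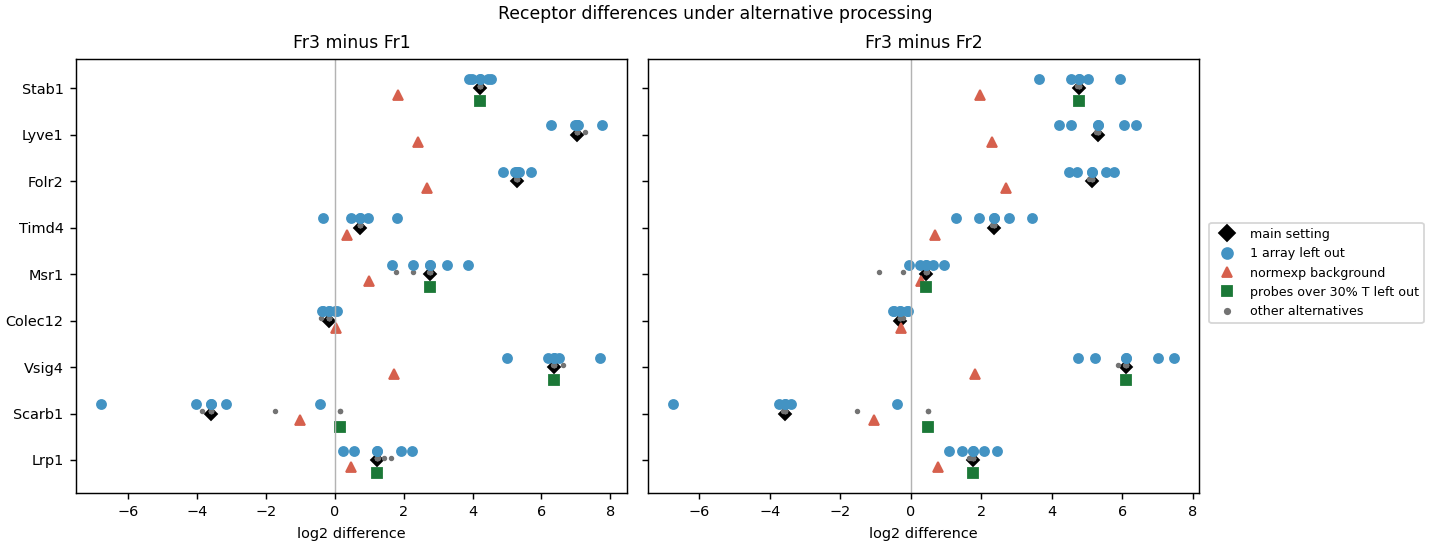
Log2 difference (x axis) of each receptor in Fr3 minus Fr1 and Fr3 minus Fr2 under every alternative tried; symbols mark the main setting, 1 array left out, normexp background correction, probes over 30% T left out and the rest. The fitted values of Stab1, Lyve1, Folr2 and Vsig4 stay right of 0 throughout, from 1.73 upwards, although those of Lyve1 and Vsig4 against Fr1, and of Vsig4 against Fr2, are set against background, while Scarb1 runs from −6.78 to 0.14 in Fr3 minus Fr1.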

How the data were processed

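Total RNA of each sort was amplified with the Ovation Pico WTA system and labelled with Cy3, per the labels' protocols. The intensity values are the processed spot signals made by the authors, per the file headers, in Agilent Feature Extraction 11.5.1.1 from arrays of 62976 spots read in 1 channel. The deposited table of log2 values, with column medians between −2.43 and −2.25, correlated with them at r of at least 0.9999 and served as an alternative, so its scale and direction are known; it is centred on each array's 75th percentile. Probe coordinates are on mm9 and were copied from the files.

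The log2 of each spot was taken and the 75th percentile of the array's non-control spots subtracted. Spots of a probe without an outlier flag were then averaged. Kept were probes well above background on each array of 1 fraction or more (27867 probes, 20817 genes), after 4 with an outlier flag were left out. A gene is its brightest kept probe. Limma 3.58.1 in R 4.3.3 fitted 3 fraction means over 6 arrays, with two-sided moderated tests and Benjamini-Hochberg adjustment over all genes; it was tested on simulated data. Tables were handled in Python 3.11.15. Only 2 arrays per fraction limit the precision. Where all probes of a gene were dim in a fraction, "at least N-fold" compares the brighter mean with the dim one's, each dim array raised to its lowest signal well above background. Gene names were updated by accession (32992 probes), symbol (10223) or synonym (520), and 12866 kept the file's name. Named genes were all receptors, the sort markers, from each list the 2 with the smallest p in Fr3 minus Fr1 and the 1 in Fr2 minus Fr1, and the genes with the nearest pattern. Stab2, Cd36 and the second probes were named besides. Some genes that this rule names are not reported here. The receptors, lists and rules were chosen with earlier results of these data known. Same-numbered arrays deviated together with r = 0.433 for Fr3 with Fr1, 0.118 for Fr2 with Fr1 and 0.0458 for Fr3 with Fr2. The main fit did not take the numbers as pairs, so it leaves the deviation that Fr3 and Fr1 shared in the spread. An alternative, the replicate block, fitted a term for the replicate number.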

Additional observations from a re-analysis of the deposited data

How the results depend on the processing

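Under the alternatives, 375 of 411 receptor differences kept their direction and side of the threshold and 25 turned sign. The threshold was an adjusted p of 0.05, which 0 receptors passed in the main fit, so keeping its side means still not passing. Some alternatives repeat each other: leaving out either array of the fraction that is not compared gives the fit of only the 2 groups again. Genes with an adjusted p under 0.05 (limma) in Fr3 minus Fr1, 1 in all, numbered 0 in a fit of only the 2 groups, 3 with normexp, 0 with no filter, 0 on single probes, 12 with probes over 30% T left out, and 0 to 1476 with 1 array left out. In Fr3 minus Fr2, also 1, they numbered 0 with only the 2 groups, 14 with normexp, 9 with probes well above background on all arrays, 56 without probes over 30% T and 0 to 988 with 1 array left out. In Fr2 minus Fr1, 0 (2038 at an unadjusted p under 0.05), they numbered 13 with only the 2 groups, 3 without probes over 30% T and 0 to 13 with 1 array left out. At an unadjusted p under 0.05 the counts with 1 array left out ran from 1248 to 3690 in Fr3 minus Fr1 (1690), from 1172 to 3894 in Fr3 minus Fr2 (1856) and from 1212 to 2631 in Fr2 minus Fr1 (2038). The highest counts in both Fr3 comparisons came without Fr3 replicate 1.

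Receptors at an unadjusted p under 0.05 in Fr3 minus Fr1 (5) numbered 0 with probes well above background on all arrays, where 3 receptors could be tested, 3 of 5 tested without probes over 30% T, and 5 to 6 with 1 array left out. In Fr3 minus Fr2 (5) these were 1, 2 and 4 to 6, and in Fr2 minus Fr1 (1) 0 with probes well above background on all arrays, 2 with only the 2 groups and 0 to 2 with 1 array left out. Receptors with an adjusted p under 0.05 (0 in each comparison) numbered 1 without probes over 30% T in Fr3 minus Fr2, and 0 to 5 with 1 array left out in each Fr3 comparison; the 5, without Fr3 replicate 1, were Stab1, Lyve1, Folr2 and Vsig4, higher, and Scarb1, lower. The replicate block left 0 genes with an adjusted p under 0.05 in each comparison and 5 receptors at an unadjusted p under 0.05 in each Fr3 comparison, and gave 3 in Fr2 minus Fr1. It changed no other call of these counts. Over all 20817 genes it called 2758 in Fr2 minus Fr1 at that threshold, against 2038 in the main fit. In Fr3 minus Fr1 it called 2279 against 1690, and in Fr3 minus Fr2 2560 against 1856. Why these counts moved was not tested, beyond the fewer genes or arrays that a setting leaves.

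Signs turned in Fr3 minus Fr1 for Timd4 (−0.36 to 1.795 with 1 array left out, the lowest without Fr3 replicate 1), Colec12 (0.032 with normexp, −0.37 to 0.052 with 1 array left out) and Scarb1 (0.14 on its second probe, also the value with probes well above background on all arrays or without probes over 30% T). In Fr3 minus Fr2 they turned for Msr1 (−0.23 as a mean of probes, −0.89 on its second probe, −0.051 to 0.93 with 1 array left out) and Scarb1 (0.49 in the same 3 settings). In Fr2 minus Fr1 they turned with 1 array left out for Stab1 (−1.70 to 0.57), Folr2 (−0.48 to 0.81), Colec12 (−0.049 to 0.32), Vsig4 (−0.65 to 1.13), Scarb1 (−0.47 to 0.40) and Lrp1 (−1.55 to 0.47). There they also turned with normexp for Folr2 (−0.05), Vsig4 (−0.090), which is dim in both, and Scarb1 (0.043), and with quantile normalization for Colec12 (−0.18). The cause was not tested, except that the settings on the second probe replace the probe itself. Of 432 list medians, 69 moved by more than the spread between replicates and 48 turned sign, in 16 of 27 pairs of list and comparison. Signal over background limits Marco everywhere, Lyve1 in Fr1 and Vsig4 in Fr2 and Fr1, where only bounds can be given.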
